A study of Homo sapiens with 9 samples.

Results

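Messenger RNA was measured in the untreated cells labelled R-HepG2, which are the 3 medium arrays of a series of 9 Affymetrix expression arrays. The members were chosen by their sample titles, R-HepG2-1 to R-HepG2-3, so the group holds 3 of the 9 samples. The series title places the study in insulin resistance and in the action of insulin inside the nucleus. All cells were grown in DMEM with serum, kept overnight in DMEM without serum, given fresh medium for 4 h and washed before RNA extraction. The medium group received DMEM alone, the insulin group received insulin at 40 ug/ml, and the group with biomineralized insulin received the same total amount of insulin in that form. Each of these groups has 3 arrays, and the treated arrays are used here only to show whether the same genes were detected there. The cell line tag reads R-HepG2 on the medium arrays and HepG2 on the treated arrays, while the growth and treatment protocols name R-HepG2 for all. No source used here says how the R-HepG2 line was derived, whether it is 1 clone, or whether the replicates came from separate cultures, so the spread between replicates may be technical.

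HepG2 is a human hepatoma line that is widely used as a liver model because it secretes albumin, alpha-fetoprotein and apolipoproteins. Hepatocytes, the parenchymal cells of liver, make most plasma proteins, carry the urea cycle and gluconeogenesis, and depend on a network of transcription factors that includes the FOXA and C/EBP families. Epithelial cells are held together by cadherins, desmosomes and tight junctions and are built on keratins, whereas mesenchymal cells rest on vimentin and N-cadherin. Cells short of amino acids or with unfolded protein in the endoplasmic reticulum phosphorylate the initiation factor eIF2, which raises the translation of ATF4, a transcription factor for amino acid synthesis, uptake and tRNA charging.

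A level is the log2 value of 1 probe set per gene, and every ± is the SD over the 3 medium arrays (n = 3). Probe sets bind with unequal strength, so levels give no order of transcripts between genes, and genes were placed in 3 classes only. A gene is called detected where it exceeded a background level on all 3 medium arrays. That level was the 95th percentile of 373 olfactory, taste, trace amine and vomeronasal receptor genes, which few tissues express, and it lay at 4.97, 5.03 and 5.11 log2 on the 3 arrays. A gene is called bright where it was among the brightest 10% of genes on all 3 arrays, which took levels above 10.24, 10.22 and 10.20. The 3 arrays gave nearly the same picture, with Pearson correlations across probe sets of 0.998232, 0.99773 and 0.997886. The median SD was 0.0353 log2 for bright genes and 0.105 for genes that were not detected, so low levels are the less certain ones. Control probe sets without a genomic target read from 2.28 log2 at the lowest GC content to 9.86 at the highest on array 1. A probe set very rich in GC can thus read far above the background level without a target. A single dim probe set just over the background level is also weak evidence of a transcript.

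The genes that define liver were mostly not detected. Of 109 measured hepatocyte genes, 31 were detected (28.4%), beside 62.2% of all 18132 genes, and 3 were bright, beside 9.66% of all genes. The median level of the hepatocyte genes was 4.04 log2, and that of all genes 6.28. Of 11 genes taken as defining, which are ALB, AFP, APOA1, APOB, TTR, SERPINA1, FGB, FOXA1, FOXA2, CEBPA and ASGR1, 5 were detected. The labels assign the cells to hepatoma and liver, and these markers go against that, so the cells are called here by their label alone. In RNA from whole cultures, fewer cells that express a gene and less of its RNA per cell cannot be told apart.

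ALB, the gene of serum albumin, read 3.30, 3.29 and 3.26 log2 on the 3 arrays. AFP, the fetal counterpart of albumin, read 2.90, 3.06 and 3.04, and APOB, the protein core of very low density lipoprotein, read 2.95, 2.89 and 2.79. All 9 of these values lie well below the background level, among the dimmest values of their arrays, and none of the 3, 2 and 4 probe sets for these genes was detected. SERPINA1, alpha-1-antitrypsin, read 3.88, 3.91 and 3.71, FGB, the fibrinogen beta chain, read 4.10, 4.01 and 3.90, and APOA2, an apolipoprotein of high density lipoprotein, read 3.19, 2.99 and 3.34. These genes were not detected either, nor was HP, the haemoglobin scavenger haptoglobin, at 3.98 ± 0.17. Of 36 plasma protein genes, 10 were detected and 0 were bright. Detected ones included F2, prothrombin, at 6.41 ± 0.11, the complement genes C3 at 6.30 ± 0.039 and CFB at 6.21 ± 0.044, APOM at 5.88 ± 0.063 and APOA1 at 5.77 ± 0.11. TTR, transthyretin, read 5.05, 5.13 and 5.26, which is just above the background level on each array. F2, CFB and APOA1 lost their calls with all probe sets of a gene averaged, and APOM, APOA1 and TTR with the 99th percentile as background. Only 3 of the 10 detected plasma protein genes were detected by every one of their probe sets, and only 3 of the 36 genes exceeded the 99th percentile of the receptor genes on all 3 arrays.

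**Figure D1:**
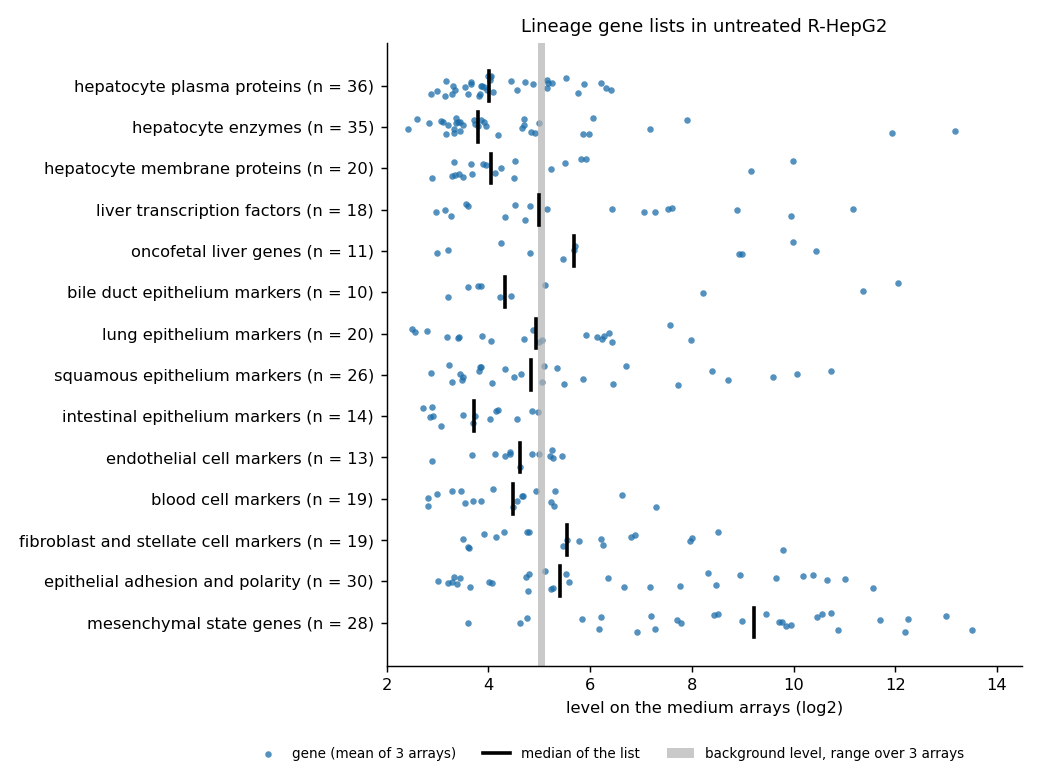
Levels of the genes of 14 lineage and epithelial state lists on the medium arrays (x axis, log2; each point 1 gene, mean of 3 arrays; black bar, median of the list; grey band, range of the background level over the 3 arrays). Medians of the hepatocyte lists lie below the band except for the transcription factors at its edge (4.99), while the median of the mesenchymal genes is 9.22.

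Among hepatocyte enzymes, 7 of 35 were detected, and the urea cycle was detected in part. CPS1, the first enzyme of the urea cycle, read 13.21, 13.13 and 13.18 log2, and ASS1, its argininosuccinate synthase, read 11.98, 11.89 and 11.95. Both were bright on every array and each was detected by all of its probe sets, although all those of ASS1 are marked as cross-hybridizing. ASL, the next enzyme of the cycle, was at 7.91 ± 0.036, whereas OTC, which uses the product of CPS1, read 3.46, 3.46 and 3.29, and ARG1, the liver arginase that closes the cycle, read 3.25, 3.41 and 3.46. Thus 3 of these 5 genes were detected and 2 were not. Beside CPS1, ASS1 and ASL, the hepatocyte enzymes detected were FAH, the last enzyme of tyrosine breakdown, at 7.18 ± 0.17, CYP4A11 at 6.06 ± 0.064, a call lost with all its probe sets averaged, the fructose kinase gene KHK at 5.99 ± 0.12, and CYP27A1 at 5.87 ± 0.20. The other 28 enzymes were not detected. Among them were TAT, the tyrosine aminotransferase, at 3.75 ± 0.19, CYP3A4, the chief drug-oxidizing P450 of adult liver, at 3.91 ± 0.060, and CYP7A1, the rate-limiting enzyme of bile acid synthesis, at 3.33 ± 0.045. Of 7 UDP-glucuronosyltransferase genes, which conjugate drugs and bilirubin, 0 were detected and the highest level was 3.37.

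Transporters and surface proteins of hepatocytes were detected for 6 of 20 genes. ABCC2, which exports conjugates into bile, read 10.02, 9.94 and 10.01 log2, and SLCO1B3, an organic anion uptake carrier, read 9.26, 9.12 and 9.11 in 1 of its 2 probe sets. Those levels are far above background on every array. ASGR1, a subunit of the asialoglycoprotein receptor, was at 5.93 ± 0.061, and ASGR2, its partner, was at 5.50 ± 0.046, a call lost with all its probe sets averaged. SLC10A1, the bile acid uptake carrier of hepatocytes, read 3.19, 3.30 and 3.50 and was not detected. GPC3, a surface proteoglycan that marks hepatocellular carcinoma, read 4.21, 4.21 and 4.32 and was not detected in any of its 3 probe sets.

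Of 18 liver transcription factor genes, 8 were detected. CEBPB, a factor induced by stress and inflammation in many cells, read 11.27, 11.07 and 11.18 log2 and was bright. TBX3 was at 9.95 ± 0.011, ONECUT2 at 8.89 ± 0.074, FOXA1 at 7.61 ± 0.018 in 1 of 2 probe sets and GATA6 at 7.54 ± 0.073. CEBPA, which drives hepatocyte differentiation, read 6.44, 6.51 and 6.35, above background on each array. FOXA2 read 4.84, 4.64 and 5.00, FOXA3 3.76, 3.53 and 3.53 and PROX1 3.43, 3.60 and 3.63, and none of these was detected. Among 11 measured oncofetal genes of liver 7 were detected (63.6%), a share close to the 62.2% of all genes. They included the RNA-binding proteins IGF2BP3 at 10.43 ± 0.075, IGF2BP1 at 8.98 ± 0.046 and IGF2BP2 at 8.94 ± 0.041, together with PEG10 at 9.98 ± 0.12. AFP and GPC3, which belong to the same list, were not detected. The call of IGF2BP2 was lost when probe sets marked as cross-hybridizing were left out.

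The calls on hepatocyte genes were nearly the same on the other arrays of the series. For 108 of the 109 genes the medium, insulin and biomineralized insulin arrays gave the same call, and 31 were detected on all 9 arrays. The mean level of ALB was 3.49 log2 on insulin arrays and 3.41 on biomineralized insulin arrays, and that of AFP was 2.87 and 2.93.

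**Figure D2:**
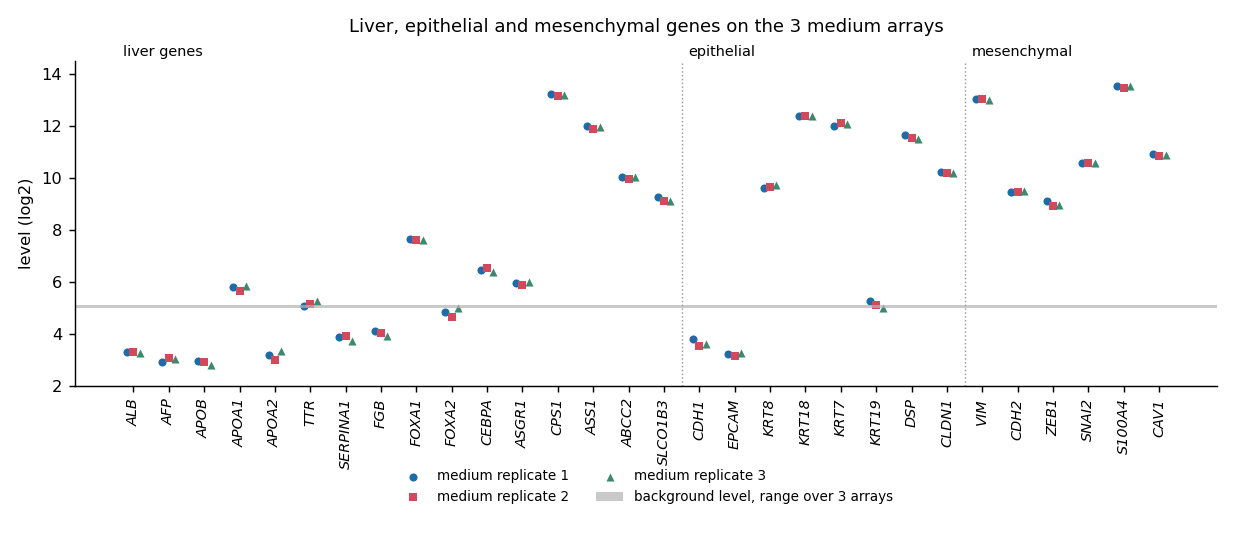
Levels (y axis, log2) of liver, epithelial and mesenchymal genes on each of the 3 medium arrays (symbols), with the range of the background level as a grey band. CPS1 (mean 13.17) and S100A4 (13.50) lie far above the band while ALB (3.28) and CDH1 (3.63) lie below it. The genes from CPS1 to SLCO1B3 and the epithelial and mesenchymal genes were chosen after their levels were seen.

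Markers of other tissues were examined in the same way. Of 174 measured genes from 12 marker lists, 60 were detected (34.5%) and 3 were bright, against 62.2% and 9.66% of all genes. The median level was 4.57 log2. The count is sensitive to the background level, since 34 of the 174 exceeded the 99th percentile of the receptor genes, and 31 were detected when all probe sets of a gene were averaged.

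Intestinal epithelium was represented by 0 of 14 detected genes, with VIL1, the brush border protein villin, at 2.91 ± 0.10 log2 and CDX2, the intestinal identity factor, at 4.86 ± 0.15. Blood cell markers were detected for 5 of 19 genes. Among them PTPRC, the pan-leukocyte antigen CD45, read 2.79, 2.68 and 2.95, and LYZ, lysozyme, read 2.80, 2.85 and 2.79, so the defining leukocyte genes were at the floor. CD68, a lysosomal protein, was at 7.31 ± 0.091. Endothelial markers were detected for 4 of 13 genes, among them PECAM1 at 5.45 ± 0.10, whose call was lost without the probe sets marked as cross-hybridizing and with all its probe sets averaged, and 0 of the 13 exceeded the 99th percentile of the receptor genes.

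Lung epithelium markers were detected for 8 of 20 genes and none was bright. ABCA3, a lipid transporter of surfactant-making cells, was at 7.99 ± 0.026 log2, SCGB3A2, an airway secretory protein, read 7.63, 7.57 and 7.51, and NKX2-1, the lung and thyroid identity factor, read 6.13, 6.20 and 6.10 with both of its probe sets detected. SFTPB, a surfactant protein, read 4.85, 4.93 and 5.23, and SFTPA1 read 2.79, 2.68 and 2.92, so these surfactant genes were not detected. Squamous epithelium markers were detected for 11 of 26 genes. SFN, the 14-3-3 sigma protein of stratified epithelia, was bright at 10.74 ± 0.024, TRIM29 was at 10.06 ± 0.030 in all 6 of its probe sets, PERP at 9.60 ± 0.020, KLF5 at 8.70 ± 0.12 and LAMB3 at 8.40 ± 0.069. The basal keratins KRT5, at 4.64 ± 0.043, and KRT14, at 5.09 ± 0.14, were not detected.

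Bile duct markers were detected for 3 of 10 genes. KRT7, a keratin of ductal epithelia, was at 12.06 ± 0.054 log2, and CD24, a surface glycoprotein, read 11.44, 11.37 and 11.30. Both were bright. MUC1, a membrane mucin, was at 8.22 ± 0.058 in 12 of 13 probe sets, while SOX9, the ductal transcription factor, read 3.48, 3.58 and 3.74 and KRT19 read 5.24, 5.11 and 4.98. Pancreas markers were detected for 3 of 10 genes, kidney markers for 2 of 11, markers of breast, prostate and ovary for 5 of 11, neural and neuroendocrine markers for 6 of 15, and melanocyte markers for 3 of 7. Detected members of these lists included ISL1 at 5.80, AQP2 at 5.94, MSLN, mesothelin, at 7.18, SYP at 6.72 and MITF, a factor also made outside melanocytes, at 9.53. ISL1 and AQP2 lost their calls with all probe sets of a gene averaged. No list of another epithelium was detected at or above the share of all genes.

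Keratins, the intermediate filaments of epithelia, were detected for 10 of 47 genes, 6 of the 10 by every probe set. KRT18 read 12.37, 12.38 and 12.39 log2 and KRT8, its partner in simple epithelia, read 9.59, 9.63 and 9.71. KRT7 and KRT18 were bright on all arrays, and all 8 probe sets of KRT8 were detected. KRT10, otherwise a keratin of differentiated epidermis, read 10.31, 10.19 and 10.16, and KRT80 was at 6.87 ± 0.024. KRT6C was at 6.44 ± 0.090 in 1 of 2 probe sets, but its sequence is close to that of other KRT6 genes and its signal is therefore uncertain. KRT19 exceeded the background level on arrays 1 and 2 and not on array 3. Without the probe sets marked as cross-hybridizing, 6 of 43 keratins were detected.

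Junction genes were detected in part. Of 30 measured genes of epithelial adhesion and polarity, 17 were detected (56.7%) and 4 were bright (13.3%), beside 62.2% and 9.66% of all genes. DSP, the desmosomal plaque protein desmoplakin, read 11.62, 11.54 and 11.50 log2, DSG2, a desmosomal cadherin, read 11.06, 10.99 and 10.98, and TJP1, the tight junction scaffold ZO-1, read 10.70, 10.66 and 10.63. These genes and JUP, plakoglobin, at 10.39 ± 0.039, were the bright ones. CLDN1, a tight junction claudin, was at 10.19 ± 0.029 and CLDN7 at 9.66 ± 0.033. CDH1, the gene of E-cadherin, read 3.78, 3.52 and 3.60, EPCAM, an epithelial adhesion protein, read 3.23, 3.13 and 3.24, and ESRP1, an epithelial splicing factor, read 2.74, 2.93 and 3.39. Those 3 genes were below background on every array, as were OCLN, occludin, at 4.73 ± 0.062 and GRHL2, an epithelial transcription factor, at 4.08 ± 0.19. ESRP2, the relative of ESRP1, was detected at 8.47 ± 0.0056.

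Mesenchymal genes were detected far more fully. Of 28 measured genes 25 were detected (89.3%), 15 of them by every probe set, and 9 were bright (32.1%). The shares of all genes were 62.2% and 9.66%. Both the junction and the mesenchymal list were chosen with earlier results of these data known. VIM, the gene of vimentin, read 13.01, 13.01 and 12.98 log2, S100A4, a calcium-binding protein of motile cells, read 13.53, 13.46 and 13.53, and ANXA1, annexin A1, read 12.25, 12.25 and 12.26. NNMT, nicotinamide N-methyltransferase, was at 12.18 ± 0.031 and TPM2, a tropomyosin, at 11.70 ± 0.024. All of these were bright on the 3 arrays, and so were CAV1, CAV2, CD44 and SNAI2. SNAI2, a repressor of E-cadherin, read 10.57, 10.58 and 10.55, ZEB1, another such repressor, read 9.11, 8.92 and 8.94 in 6 of 7 detected probe sets, and CDH2, the gene of N-cadherin, read 9.45, 9.44 and 9.47. SNAI1, at 4.62 ± 0.083, MMP2, at 4.77 ± 0.19, and CDH11, at 3.60 ± 0.032, were not detected. The fibroblast and stellate cell list was detected for 11 of 19 genes with none bright. COL5A1, a fibrillar collagen chain, was at 9.79 ± 0.075, TWIST1 was at 8.52 ± 0.066 and FAP, a surface protease of activated fibroblasts, read 8.13, 7.97 and 7.90, whereas COL1A2 read 4.01, 4.24 and 4.21, PDGFRA 3.31, 3.60 and 3.59 and THY1 4.68, 4.11 and 4.14, all below background. Neither DCN, at 7.97 ± 0.086, nor COL3A1, at 6.88 ± 0.050, kept its call without the probe sets marked as cross-hybridizing.

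Other gene families were counted in the same way, beside 62.2% of all genes detected and 9.66% bright. HOX genes, which record position along the body axis, were detected for 20 of 27 measured genes (74.1%). These were 9 of 10 in the HOXB cluster, 8 of 9 in HOXC and 3 of 7 in HOXD. The HOXA cluster was represented by 1 measured gene alone. HOXC6 read 9.41, 9.46 and 9.41 log2, HOXB7 read 9.56, 9.38 and 9.22 and HOXB2 read 9.25, 9.19 and 9.17. HOXB7 was the most variable of these, with an SD of 0.17. HOXB9 was at 8.74 ± 0.032 and HOXB3 at 8.72 ± 0.19, while HOXB1 at 4.06 ± 0.15, HOXC12 at 3.71 ± 0.059 and HOXD12 at 2.72 ± 0.046 were not detected. Nor was HOXA2, the only HOXA gene measured, at 4.31 ± 0.14. Of 20 S100 genes 11 were detected (55%) and 7 were bright (35%). S100P read 13.78, 13.78 and 13.82, and S100A6 was at 13.22 ± 0.013, S100A16 at 11.46 ± 0.028 and S100A10 at 11.06 ± 0.042. S100A8, a myeloid member of the family, was not detected, at 4.61 ± 0.20. Of 26 MAGE, GAGE, XAGE and PAGE genes, which are normally restricted to germ cells, 9 were detected. MAGEB2 alone was bright and read 10.92, 10.94 and 10.88, GAGE10 was at 7.55 ± 0.10 and CTAG2 at 7.08 ± 0.081, although members of the GAGE family are near-identical and cannot be told apart. Claudins were detected for 9 of 22 genes, SERPINB genes for 4 of 11, with SERPINB1, an inhibitor of neutrophil proteases, bright at 10.60 ± 0.068, and apolipoproteins for 6 of 20, with the mitochondrial APOO the bright one at 10.60 ± 0.019.

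**Figure D3:**
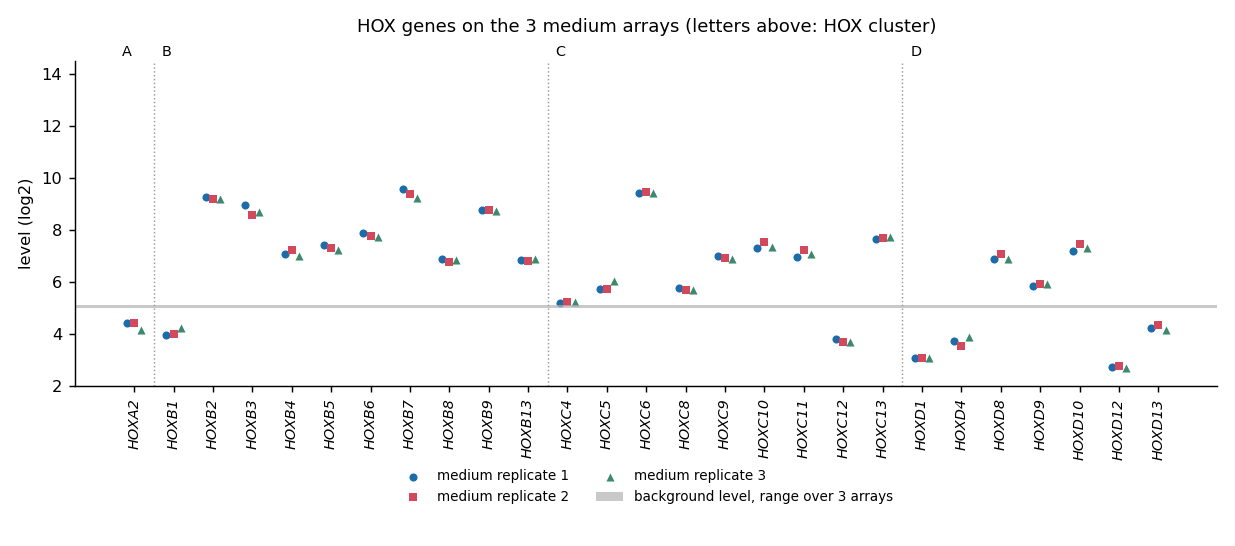
Levels (y axis, log2) of 27 HOX genes on each of the 3 medium arrays (symbols), grouped by cluster, with the range of the background level as a grey band. In HOXB, 9 of 10 genes lie above the band and HOXB1 lies below it.

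The receptor lists were detected for 118 of 177 genes (66.7%), a share close to that of all genes, and 15 were bright. They include 32 genes of the insulin receptor pathway, many of which encode signalling proteins and not receptors. That pathway holds 7 of the bright genes. The insulin pathway itself was almost fully represented, with 30 of 32 genes detected. INSR, the insulin receptor, read 7.73, 7.65 and 7.76 log2 and was detected by 4 of 5 probe sets. IGF1R, the related receptor for IGF1, read 8.20, 7.92 and 7.98. Both lie above background on all arrays, and IGF1R was higher on array 1 than on the other two. Among the docking proteins of the receptor, IRS1 was at 7.75 ± 0.059 and IRS2 at 8.67 ± 0.044, while IRS4 was not detected, at 3.52 ± 0.11. Downstream kinases were detected, with AKT1 at 6.58 ± 0.083, AKT2 at 9.10 ± 0.082, PDPK1 at 8.97 ± 0.042, MTOR at 9.39 ± 0.047 and GSK3B at 10.32 ± 0.029. The 7 bright members were RHEB, the GTPase that activates mTORC1, at 12.12 ± 0.030, TRIB3, a stress-induced inhibitor of AKT, at 11.92 ± 0.038, the adaptors SHC1 at 10.97 ± 0.0049 and GRB2 at 10.25 ± 0.028, the exchange factor SOS1 at 10.94 ± 0.011, RICTOR of mTORC2 at 10.60 ± 0.015, and GSK3B. FOXO1, the transcription factor that insulin excludes from the nucleus, read 9.20, 9.11 and 9.11, and PTPN1, a phosphatase of the receptor, read 9.23, 9.27 and 9.25.

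Receptor tyrosine kinases were detected for 25 of 52 genes (48.1%). MET, the receptor for hepatocyte growth factor, read 11.97, 11.92 and 11.87 log2, and EGFR read 11.82, 11.90 and 11.84. They were the only bright members. AXL was at 9.85 ± 0.0018, RYK at 9.97 ± 0.11, DDR1, a collagen receptor, at 9.32 ± 0.065 and ROR2, a receptor for WNT5A, at 9.12 ± 0.060. ERBB2 was detected at 7.03 ± 0.10 and ERBB3 was not, at 4.72 ± 0.16. The genes of ligands for these receptors divided, since HGF, at 3.54 ± 0.083, and EGF, at 3.01 ± 0.17, were not detected while EREG, an EGFR ligand, read 8.75, 8.63 and 8.65 and WNT5A read 10.20, 10.08 and 10.17.

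Nuclear receptors were detected for 23 of 39 measured genes. NR3C1, the glucocorticoid receptor, was bright and read 10.89, 10.84 and 10.91 log2, with all 10 probe sets detected. PPARG, the adipogenic receptor, read 10.05, 10.14 and 10.05, and PPARA, which drives fatty acid oxidation in liver, read 7.06, 7.03 and 7.07. PPARG was detected by both of its probe sets and PPARA by 4 of 9. NR2C2 was at 10.00 ± 0.022, NR2F6 at 9.95 ± 0.024 and THRA, a thyroid hormone receptor, at 9.74 ± 0.040. The liver-enriched receptors NR1I3, at 4.33 ± 0.017, NR5A2, at 3.14 ± 0.11, and NR0B2, at 5.16 ± 0.25, were not detected on all 3 arrays.

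Hormone and cytokine receptors were detected for 42 of 57 genes (73.7%). TFRC, the transferrin receptor, read 13.05, 13.04 and 13.07 log2, and TGFBR1 read 11.45, 11.41 and 11.40. TNFRSF10B, a death receptor for TRAIL, was at 11.03 ± 0.037, ADIPOR2, an adiponectin receptor, at 10.41 ± 0.010 and IL6ST, the shared signalling chain of the IL-6 family, at 10.39 ± 0.078. These 5 were bright. The ligand-binding chain IL6R read 5.15, 5.15 and 5.08, below background on array 3 alone, whereas LIFR at 9.95 ± 0.037 and OSMR at 9.68 ± 0.034, which bind leukaemia inhibitory factor and oncostatin M, were detected. GHR, the growth hormone receptor, read 3.03, 2.92 and 3.17, KLB, the co-receptor for FGF21, read 3.05, 3.18 and 3.20, and LEPR, the leptin receptor, read 4.76, 4.66 and 4.32. None of the 3 was detected. GCGR, the glucagon receptor, was detected close to background at 5.23 ± 0.026.

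**Figure D4:**
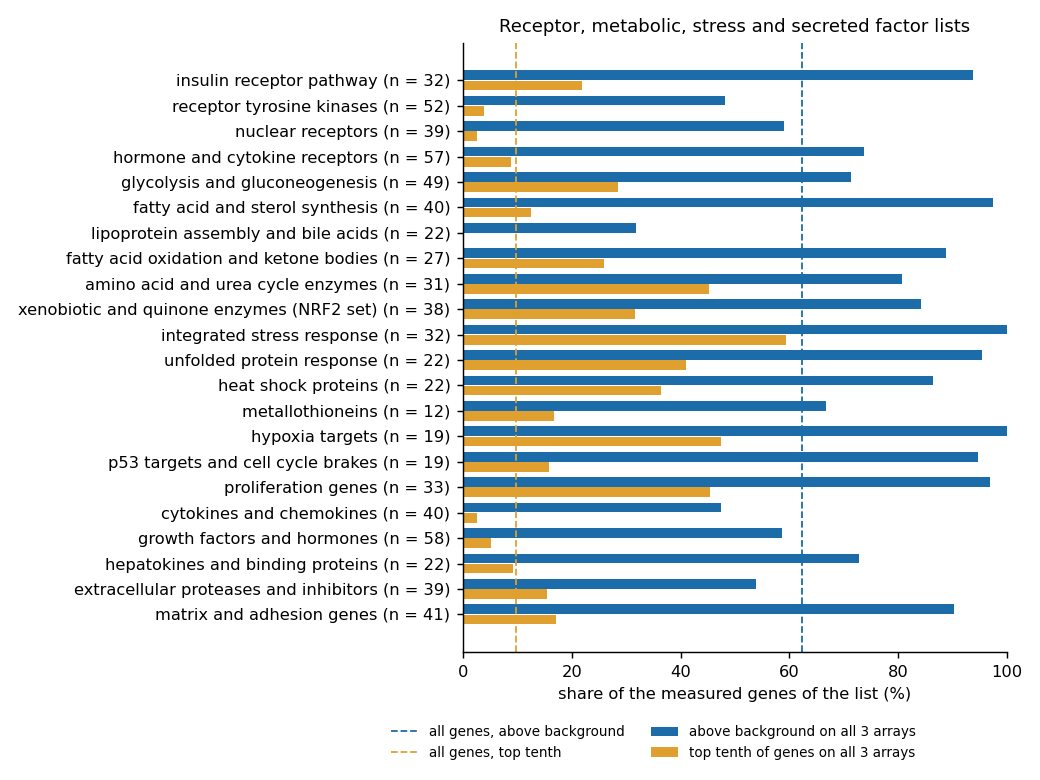
Shares of measured genes (x axis, percent) that were detected (blue) or bright (yellow) on all 3 medium arrays, for the receptor, metabolic, stress and secreted factor lists, with dashed lines at the shares of all genes, 62.2% and 9.66%. All 32 genes of the integrated stress response were detected and 59.4% were bright.

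In metabolism, 161 of 206 genes were detected (78.2%) and 52 were bright (25.2%). Of 49 genes of glycolysis and gluconeogenesis 35 were detected and 14 were bright. LDHA, lactate dehydrogenase A, read 13.93, 14.02 and 14.02 log2, GAPDH was at 13.81 ± 0.0091, PGK1 at 13.52 ± 0.033, LDHB at 13.37 ± 0.0071 and PGAM1 at 13.33 ± 0.040. Enzymes with a liver form split by isozyme. PKM, the pyruvate kinase of most tissues, read 10.17, 10.31 and 10.30, and PKLR, that of liver and red cells, read 4.40, 4.72 and 4.90. The mitochondrial PCK2 was at 9.66 ± 0.032 and the cytosolic gluconeogenic PCK1 at 4.18 ± 0.074, GYS1, the muscle type glycogen synthase, at 8.11 ± 0.10 and GYS2, the liver one, at 2.43 ± 0.15. In each of those pairs the first gene was detected and the second was not. SLC2A1, the widespread glucose carrier GLUT1, read 10.59, 10.54 and 10.58 and was bright, while SLC2A2, the liver carrier GLUT2, read 3.47, 3.22 and 3.81. G6PC1, at 4.71 ± 0.22, and FBP1, at 3.73 ± 0.14, which release glucose in liver, were not detected. PYGL, the liver glycogen phosphorylase, went against this division and read 10.05, 9.94 and 10.00.

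Lipid synthesis genes were detected for 39 of 40 members (97.5%), of which 5 were bright. SCD, the stearoyl-CoA desaturase, read 12.04, 12.02 and 12.02 log2, ACLY, which makes cytosolic acetyl-CoA, was at 11.83 ± 0.065, ELOVL5 at 11.83 ± 0.053, and the sterol enzymes EBP and FDPS at 11.64 ± 0.073 and 11.37 ± 0.034. FASN, fatty acid synthase, was at 7.51 ± 0.048 and SREBF1, a master factor of the pathway, at 8.88 ± 0.028. THRSP, a lipogenic gene of liver and fat, was the member not detected, at 3.87 ± 0.30. Fatty acid oxidation was detected for 24 of 27 genes, with 7 bright, among them ACADVL at 11.72 ± 0.043, ACAT1 at 11.53 ± 0.015, ECHS1 at 11.30 ± 0.061, HADHA at 11.26 ± 0.033 and ETFA at 11.26 ± 0.041. FABP1, the liver fatty acid-binding protein, read 3.26, 2.86 and 3.25 and was not detected. Lipoprotein assembly and bile acid genes were detected for 7 of 22, with none bright. MTTP, which loads lipid onto APOB, read 4.01, 3.88 and 3.88, below background on every array. SLC27A5, a bile acid-activating enzyme, was at 8.36 ± 0.046, ANGPTL4 at 7.23 ± 0.23, APOE at 6.28 ± 0.10, AMACR at 6.27 ± 0.16 and LPA at 6.06 ± 0.075, the last with 1 of 2 probe sets detected and its call lost with both averaged.

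Amino acid enzymes were detected for 25 of 31 genes, and 14 were bright (45.2%). Beside CPS1 these included serine and one-carbon enzymes, with PSPH at 12.65 ± 0.047 log2 and MTHFD2 at 12.64 ± 0.077. PSAT1 read 12.57, 12.28 and 12.30, highest on array 1, and KYNU, an enzyme of tryptophan breakdown, read 12.57, 12.48 and 12.55. PHGDH, which opens the serine pathway, was at 11.05 ± 0.023 and SHMT2 at 10.74 ± 0.036. TDO2, the liver tryptophan dioxygenase, was not detected, at 2.84 ± 0.10, nor was IDO1, its counterpart in immune settings, at 3.63.

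Quinone, thioredoxin and glutathione enzymes, many of them targets of NRF2, were detected for 32 of 38 genes, and 12 were bright (31.6%). FTL, ferritin light chain, was at 13.54 ± 0.025 log2, TXN, thioredoxin, at 13.27 ± 0.053 and TXNRD1, its reductase, at 12.43 ± 0.039. NFE2L2, the gene of NRF2 itself, read 12.09, 12.10 and 12.09, and TALDO1 of the pentose phosphate pathway read 12.14, 12.13 and 12.16 in 1 of 2 probe sets. NQO1, a quinone reductase, was at 11.04 ± 0.026, SLC7A11, the cystine carrier, at 11.15 ± 0.017 and AKR1C3 at 11.83 ± 0.030. All of these were bright. Not every NRF2-linked gene was on, since AKR1B10 read 4.64, 4.67 and 4.14 and ALDH3A1 was at 4.01 ± 0.060, both below background. Cytochrome P450 genes of families 1 to 4 were detected for 9 of 29 genes with none bright. CYP1A2, at 8.03 ± 0.17, lost its call without probe sets marked as cross-hybridizing, and CYP2R1 was at 7.63 ± 0.077.

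The stress lists were the most fully detected of the themes examined, at 148 of 158 genes (93.7%), with 64 bright (40.5%). They also hold 33 proliferation genes, of which 15 were bright, and 19 genes that brake the cell cycle or are targets of p53. These lists overlap with metabolism and were chosen with earlier results of these data known. All 32 genes of the integrated stress response were detected, 29 of them by every probe set, and 19 were bright. ATF4 read 12.74, 12.74 and 12.73 log2, DDIT4, an inhibitor of mTORC1, read 12.81, 12.82 and 12.83, and SLC38A2, a neutral amino acid carrier, read 13.05, 12.99 and 13.05. ASNS, asparagine synthetase, read 12.26, 12.20 and 12.18, GARS1, glycyl-tRNA synthetase, was at 12.78 ± 0.039, and PSAT1 also belongs to the list. DDIT3, the pro-apoptotic factor CHOP, was at 8.95 ± 0.071, ATF3 at 8.63 ± 0.035 in 3 of 7 probe sets, CHAC1, which degrades glutathione, at 8.40 ± 0.042, and PPP1R15A, which returns eIF2 to its active form, at 7.08 ± 0.026. These 4 were detected without being bright. The call was the same in all 3 groups for 30 of the 32.

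**Figure D5:**
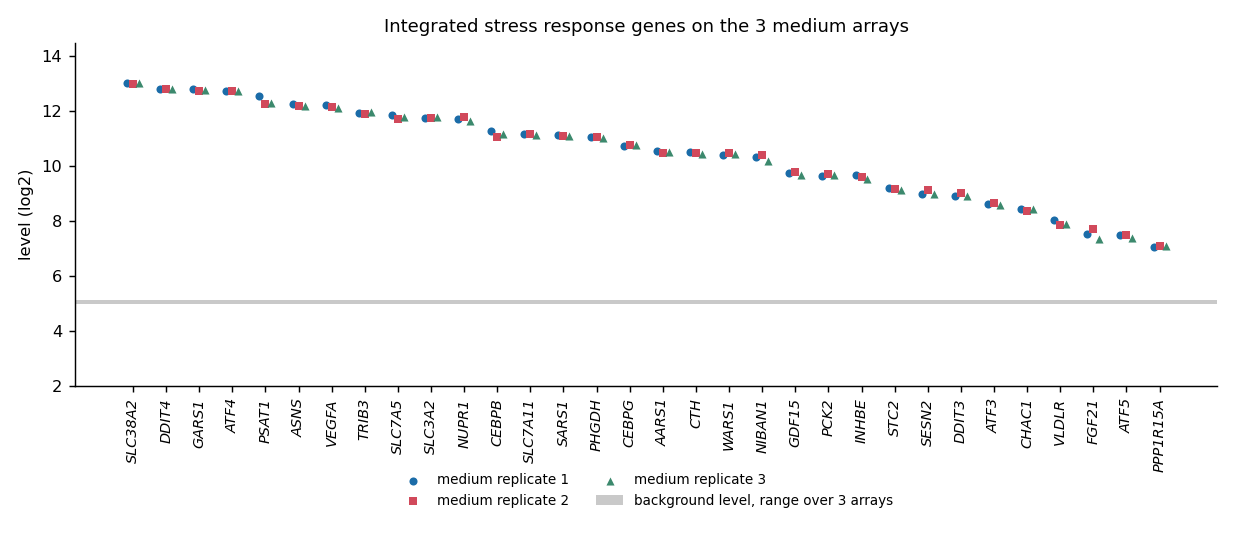
Levels (y axis, log2) of 32 integrated stress response genes on each of the 3 medium arrays (symbols), drawn by their mean, which orders probe sets and not transcripts, with the range of the background level as a grey band. All 32 lie above the band, SLC38A2 at 13.03 and PPP1R15A at 7.08.

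The promoters of 4 of these genes are shown because they hold letters of the composite element that ATF4 binds together with C/EBP factors. Sequences are the 250 bases before the gene start in RefSeq, build GRCh38.p14, written 5′ to 3′ on the strand of the gene, with matches to TGATGNAA or its reverse complement TTNCATCA in capitals. They stand at chr7:97872409-97872658 on the minus strand for ASNS, chr19:48755274-48755523 on the plus strand for FGF21, chr19:33373863-33374112 on the plus strand for CEBPG and chr15:40953221-40953470 on the plus strand for CHAC1.
ASNS: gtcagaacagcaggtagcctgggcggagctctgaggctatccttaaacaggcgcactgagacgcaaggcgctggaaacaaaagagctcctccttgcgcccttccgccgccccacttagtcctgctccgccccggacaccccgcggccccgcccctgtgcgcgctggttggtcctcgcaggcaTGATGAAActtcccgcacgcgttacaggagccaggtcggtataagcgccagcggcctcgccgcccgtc
FGF21: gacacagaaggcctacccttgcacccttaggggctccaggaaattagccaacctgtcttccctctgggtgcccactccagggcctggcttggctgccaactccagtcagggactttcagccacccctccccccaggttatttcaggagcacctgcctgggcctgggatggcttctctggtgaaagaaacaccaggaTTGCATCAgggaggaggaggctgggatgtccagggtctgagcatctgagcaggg
CEBPG: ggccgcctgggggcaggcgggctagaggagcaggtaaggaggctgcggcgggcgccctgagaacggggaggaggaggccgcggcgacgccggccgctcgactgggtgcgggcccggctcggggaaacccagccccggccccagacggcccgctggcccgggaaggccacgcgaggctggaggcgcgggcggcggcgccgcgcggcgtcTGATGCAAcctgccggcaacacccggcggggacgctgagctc
CHAC1: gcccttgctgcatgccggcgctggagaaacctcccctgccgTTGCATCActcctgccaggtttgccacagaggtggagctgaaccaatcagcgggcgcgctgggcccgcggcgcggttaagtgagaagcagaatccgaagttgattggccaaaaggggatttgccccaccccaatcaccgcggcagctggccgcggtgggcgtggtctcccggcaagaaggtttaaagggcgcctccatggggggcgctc
The match begins 68 bases before the start in ASNS, 54 in FGF21, 42 in CEBPG and 209 in CHAC1. Of the 32 genes in the list 28 matched a promoter, and 7 of those 28 held TGATGNAA on either strand (25%), beside 1061 of 27305 genes with a promoter (3.89%). A gene counted where any of its RefSeq starts held the letters, and the window shown is the one that holds them. The same search gave 1 of 22 for the unfolded protein response and 2 of 28 for the plasma proteins. The motif was first searched as TGATGNAAT, which contains the shorter form. That search found 2 of 28 genes of the list (7.14%), the same as in the plasma proteins, and 298 of all 27305 (1.09%), and the shorter form was chosen after this count and the missing ASNS match had been seen. The matches are letters in a window and describe the sequence alone. The ASNS transcript stood at 12.21 ± 0.041, CEBPG, a partner of ATF4, at 10.76 ± 0.016, CHAC1 at 8.40 ± 0.042, and FGF21, a hormone made under amino acid shortage, read 7.52, 7.69 and 7.36.

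Unfolded protein response genes were detected for 21 of 22 members with 9 bright. HSPA5, the endoplasmic reticulum chaperone BiP, read 12.46, 12.44 and 12.51 log2, HSP90B1 was at 13.28 ± 0.0093, CANX, calnexin, at 13.04 ± 0.024, SEC61B of the translocon at 12.13 ± 0.034 and PDIA6 at 11.70 ± 0.013. XBP1 was bright at 10.41 ± 0.074, whereas ERN1, the sensor that splices its RNA, read 5.02, 4.96 and 4.91, above background on array 1 alone. Heat shock genes were detected for 19 of 22 members with 8 bright, among them HSPD1 at 12.67 ± 0.018, HSPA9 at 12.34 ± 0.057, HSP90AA1 at 12.14 ± 0.071, HSP90AB1 at 12.05 ± 0.060 and HSPA8 at 11.78 ± 0.085. The stress-inducible HSPA1B read 7.94, 7.87 and 7.78 and HSPA6 read 4.69, 4.24 and 4.65, so the first was detected and the second was not. HSPD1 lost its call without the probe sets marked as cross-hybridizing.

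Of 12 metallothionein and zinc genes 8 were detected. MT2A read 13.15, 13.14 and 13.11 log2 and SLC30A1, a zinc exporter, read 11.90, 11.99 and 11.97, and both were bright. MT1X was at 10.16 ± 0.082, MT1F read 8.03, 8.02 and 7.96 and MT1E was at 7.88 ± 0.022, while MT1M, at 3.85 ± 0.27, was not detected, although metallothionein copies are alike and their probe sets may share signal. All 19 genes of the hypoxia list, which holds the regulator HIF1A beside targets, were detected and 9 were bright. HIF1A read 12.86, 12.73 and 12.77, VEGFA was at 12.17 ± 0.052, NDRG1 at 11.37 ± 0.15, MXI1 at 10.82 ± 0.043 and BNIP3 at 11.70 ± 0.041, the last lost without the probe sets marked as cross-hybridizing. CA12 read 5.27, 5.47 and 5.49, close to background on each array.

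Of 19 genes that brake the cell cycle or are targets of p53, 18 were detected. CDKN2A, which encodes the inhibitors p16 and p14ARF, read 12.30, 12.25 and 12.28 log2 in a bright probe set, with all 3 of its probe sets detected. CDKN1A, the gene of p21, was at 10.30 ± 0.029, GADD45B at 10.20 ± 0.021 and CDKN1B at 10.16 ± 0.15. Proliferation genes were detected for 32 of 33 members, with 15 bright, after a night without serum. RRM1 was at 13.25 ± 0.041, TYMS at 12.60 ± 0.026, PCNA at 12.48 ± 0.016, MCM7 at 12.38 ± 0.050 and MCM4 at 11.73 ± 0.13. MKI67, a marker of cycling cells, was at 9.18 ± 0.093, CCND1 at 7.68 ± 0.049, and CCND2 was the member not detected, at 3.89 ± 0.18.

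Secreted factors were detected for 126 of 199 genes (63.3%) and 19 were bright (9.55%), which are close to the shares of all genes. Cytokine and chemokine genes were detected for 19 of 40. MIF, made by most cells, was the bright one at 13.83 ± 0.014 log2. IL18 read 9.81, 9.47 and 9.47, highest on array 1, CXCL2 was at 8.45 ± 0.088, IL15 at 7.88 ± 0.030 and TNFSF9 at 7.55 ± 0.13. CXCL8 read 6.19, 6.02 and 6.23 and IL6 5.64, 6.08 and 5.61, detected by 1 of 3 and 1 of 2 probe sets, whereas TNF, at 3.15 ± 0.080, and CCL2, at 4.21 ± 0.22, were not detected. Of these 40 genes 35 had the same call in all 3 groups, and 14 were detected on all 9 arrays.

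Growth factor and hormone genes were detected for 34 of 58 members. VEGFA and ADM, adrenomedullin, at 10.60 ± 0.011 log2, were bright, and so was BMP2, which read 11.83, 11.85 and 11.83. WNT5A and GDF15, a stress-induced hormone at 9.74 ± 0.067, were detected. So were INHBE, a liver-enriched activin chain, at 9.60 ± 0.069, NMU at 9.41 ± 0.031 and STC2 at 9.16 ± 0.039. TGFB1 was not detected by its single probe set, at 4.28 ± 0.043, nor was IGF1, at 5.08 ± 0.059. Hepatokine and binding protein genes were detected for 16 of 22 members. IGFBP7 was bright and read 11.68, 11.63 and 11.41 in 1 of 4 probe sets, FSTL1 was at 11.34 ± 0.050, SELENOP, the selenium carrier of plasma, at 9.90 ± 0.11 and IGFBP3 at 8.91 ± 0.16. HAMP, the iron hormone hepcidin, read 8.68, 8.79 and 9.16, and it and IGFBP7 lost their calls without the probe sets marked as cross-hybridizing. FSTL1 kept its call without them but fell far below the bright limits. IGFBP1, an insulin-repressed binding protein of liver, read 4.44, 4.61 and 4.08 and was not detected, and neither was IGFBP2, at 3.56 ± 0.078.

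Extracellular proteases and their inhibitors were detected for 21 of 39 genes with 6 bright. ADAM9 was at 11.58 ± 0.056 log2, SLPI, a secreted leukocyte protease inhibitor, at 11.37 ± 0.043, TFPI, which inhibits coagulation, at 11.24 ± 0.072, SERPINE2 at 11.16 ± 0.040 and TIMP1 at 10.98 ± 0.048. The collagenase gene MMP1 read 2.95, 2.99 and 3.12 and was not detected. Matrix and adhesion genes were detected for 37 of 41 members (90.2%) with 7 bright, including ITGB1 at 13.45 ± 0.013, the galectins LGALS3 at 12.46 ± 0.014 and LGALS1 at 12.45 ± 0.012, AGRN at 11.68 ± 0.015 and COL12A1 at 10.86 ± 0.046. FN1, fibronectin, read 7.86, 7.79 and 7.51, detected in 6 of 8 probe sets.

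Outside the cytosolic ribosomal proteins, of which 68 of 71 were detected and the same number bright, bright genes included LDHA, the mitochondrial ND4 at 13.93 ± 0.012 log2, PPIA at 13.89 ± 0.033, NPM1 at 13.83 ± 0.0049, MIF, GAPDH, S100P, TPT1 at 13.79 ± 0.011, whose call was lost without the probe sets marked as cross-hybridizing, EEF1A1 at 13.76 ± 0.031 and BASP1, a cytoskeleton-associated protein of growing neurites, at 13.72 ± 0.011. Detected genes with the largest spread between the 3 arrays were ATP10B, with 5.21, 5.03 and 5.74, SOBP, with 5.57, 5.99 and 5.29, and RNASE13, with 5.40, 6.09 and 5.70. None of these 3 genes kept its call with the 99th percentile of the receptor genes as background. Only TAOK1, a kinase that read 8.09, 8.46 and 8.78, and SLC16A7, a monocarboxylate carrier that read 7.79, 7.42 and 7.14, stood above 7 log2 on every array among the 10 most variable detected genes. Of 11287 detected genes 20 had an SD over 0.3.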

How the data were processed

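Each array gives 1 deposited log2 value per probe set (log2 as judged from the range). No source used here names the software with which the authors summarised and normalized them. Labelling used a kit primed at the 3' end, per the labels' protocols, so mainly 3' ends are read. The 3' control probe set of actin exceeded its 5' one by 2.96, 3.03 and 3.08 log2 on the medium arrays. That of GAPDH did so by 0.13, 0.20 and 0.15. Scanner files and detection calls were not used here, and having 3 arrays limits precision.

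Among 49395 probe sets, the annotation of the array names a single gene for 44988, several for 1832 and none for 2473, and 102 are controls. Entrez identifiers linked 44961 of them to current RefSeq symbols (GRCh38.p14). For each of 18132 genes the brightest probe set over all 9 arrays was used, which favours detection for the 11734 genes with several. The rule for background was run on simulated data, with silent genes drawn from the receptor genes that set the level and expressed genes placed above it. That run checks the code and cannot show how often real silent genes are called. No test was run, because 1 group is described by itself.

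The members, the 41 gene lists and the 11 families were chosen with earlier results of these data known. Some list genes were not analysed here. Named genes are up to 5 per list with the highest mean, defining liver and insulin genes, the 25 highest genes and the 10 most variable detected ones. Any other gene named was chosen after its values were seen. Alternatives covered background level, probe set choice, normalization and leaving out each array. Python 3.11.15, numpy 2.4.6, pandas 2.3.3 and matplotlib 3.10.9 were used.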

Additional observations from a re-analysis of the deposited data

How the results depend on the processing

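No count reversed. Counts of detected genes for the receptor, metabolic, stress and secreted factor lists stayed within 1.5 times of the reported ones under every alternative run. Hepatocyte genes detected fell from 31 to 19 with background at the 99th percentile of the silent receptor genes and to 20 with the mean of all probe sets of a gene. Keratins detected fell from 10 of 47 to 6 of 43 without probe sets marked as cross-hybridizing. Markers of other cell types fell from 60 to 34 at the 99th percentile and to 31 with the mean of all probe sets. The cause was not tested. Leaving out 1 medium array gave 11341 to 11406 detected genes and 31 to 32 hepatocyte genes. It gave 10 to 11 keratins and 60 to 62 markers of other cell types. A detected gene must exceed background on every medium array kept, so leaving 1 out can add calls but cannot remove any. These counts could not fall, so they show only how many calls 1 array withheld and not whether the detected calls are stable. Of 276 named genes, 210 moved by more than their SD with the mean of all probe sets, 85 of 234 without cross-hybridizing ones, and 13 under quantile normalization. Named genes outside those 234 have only probe sets marked as cross-hybridizing and could not be checked without them. ATF4, ASS1, CEBPA and CEBPB are among those genes. Some bright genes fell far below the reported bright limits without cross-hybridizing probe sets, with AGRN at 6.61, ADIPOR2 at 6.63 and ELOVL5 at 7.38 log2. The other 149 of the 234 did not move, S100P and LDHB among them. Bright shares are thus less certain than detected ones where such probe sets were used. No paired analysis was possible because no result comes from a test and only 1 group was described. Low levels rest on signal close to background, where 14 of the 373 receptor genes were themselves detected.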

Other observations

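ABCB1, a drug efflux pump, read 6.28, 6.23 and 6.56 log2 on the medium arrays and was detected by 2 of its 4 probe sets. It was looked up after the other results were known, and it belongs to no list examined.

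SPINK1, a secreted trypsin inhibitor, read 4.99, 4.76 and 4.68 log2, above the background level on array 1 alone.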
